A study of Mus musculus with 35 samples.

Results

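Small structured RNAs are short non-coding RNAs that fold into fixed shapes and act inside protein complexes rather than as messages. Of these, 7 were chosen by gene name from the 55356 genes of the deposited annotation, namely Rn7sk, Rmrp, Rpph1, Terc, Rny1, Rny3 and Vaultrc5. Rmrp is listed under 2 gene identifiers, which gives 8 annotated entries. In the raw counts 5 of the 7 RNAs had a count in some library, and 4 (Rn7sk, Rny1, Rny3 and Vaultrc5) passed the filter on low counts and were tested with 29911 genes in all.

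The counts came from 29 RNA-seq libraries. The mice were adult C57BL/6J, an inbred laboratory strain, with no treatment or engineered allele in the labels. Brain, cerebellum, heart and colon were sampled in both sexes, and the gonad was ovary in females and testis in males. Every group of a tissue and sex had 3 libraries except male heart, which had 2. Libraries were made from total RNA after depletion of ribosomal RNA, with a stranded kit designed for mRNA, and were sequenced on an Illumina instrument. The total count per library was between 11742417 and 36194255. The labels do not say whether replicates are separate animals, so p-values measure the spread between these libraries only, which may be technical.

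The labelled tissues were checked with 21 markers of tissue or sex, of which 20 separated their tissue or sex from every other library. The exception was Amhr2, a receptor gene listed for ovary. In the third female heart library the summed level of 3 adipose markers (Adipoq, Plin1 and Cfd) was 3100 FPKM (the CPM of a gene per kilobase of its exons, where CPM is its count scaled to a library of 1000000 counts), against 0.534 to 6.67 FPKM in the other 4 heart libraries. Calls on heart are therefore given without this library as well. In bulk tissue, fewer cells of a type and less RNA per cell cannot be told apart.

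Rn7sk encodes 7SK RNA, which holds the transcription elongation factor P-TEFb (Cdk9 with cyclin T) in an inactive complex with Hexim proteins, Larp7 and Mepce. Rmrp and Rpph1 encode the RNA parts of RNase MRP and RNase P, ribonucleases that act on ribosomal RNA precursors and on the 5′ ends of tRNA precursors. Terc is the template RNA of telomerase. Rny1 and Rny3 encode Y RNAs, which bind the Ro60 protein and carry a 3′ end bound by La (Ssb). Vaultrc5 encodes the small RNA of the vault, a large hollow ribonucleoprotein particle of the cytoplasm. All of these except Terc are made by RNA polymerase III, which stops at a run of T in the coding strand.

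The sequences below show which bases these RNAs share with copies, with each other or with listed neighbours, and all are transcript sequences of GENCODE release M21 on GRCm38.p6, 5′ to 3′ in the sense of the RNA. The Y RNA genes lie on chromosome 6 on opposite strands, Rny1 (ENSMUSG00000065701) at chr6:47788069-47788180 on the minus strand and Rny3 (ENSMUSG00000064945) at chr6:47781624-47781725 on the plus strand, with 6343 bases between them. Capitals mark bases that are identical in their alignment, 80 of 112 columns or 71.4%.
Rny1: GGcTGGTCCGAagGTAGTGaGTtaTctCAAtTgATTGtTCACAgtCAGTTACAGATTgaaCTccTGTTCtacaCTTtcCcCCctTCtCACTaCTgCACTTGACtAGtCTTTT
Rny3: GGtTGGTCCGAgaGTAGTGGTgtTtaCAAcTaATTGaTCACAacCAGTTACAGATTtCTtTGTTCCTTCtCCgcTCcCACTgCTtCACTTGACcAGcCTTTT
The longest run shared without a gap was 12 bases, CAGTTACAGATT, and both genes end in 4 T.

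Rn7sk (ENSMUSG00000065037) lies at chr9:78175303-78175633 on the minus strand and has 331 bases. Its first 241 bases are identical in the annotated copy Gm24447, so the last 90 bases, shown in capitals after 30 shared bases, are those that set the gene apart from its closest copy.
Rn7sk, last bases: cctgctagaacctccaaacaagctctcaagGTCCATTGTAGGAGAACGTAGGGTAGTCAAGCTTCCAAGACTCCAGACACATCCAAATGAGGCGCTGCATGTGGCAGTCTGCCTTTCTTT
Gm24447 received 86629 counts, between 0.0923% and 0.915% of the Rn7sk count of the same library, and the 21 annotated copies of Rn7sk together received 0.214% of the Rn7sk count. The 8 copies of Rny1 received 86 counts against 10463 for Rny1, and no copy of Rny3 was found. Reads that fit a gene and its copy equally well are uncertain in all of these counts.

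Rmrp and Terc had 0 counts in all 29 libraries, and Rpph1 had 10 counts spread over 9 libraries with at most 2 in any library. A count of 0 allows up to 3 counts, or 0.0829 to 0.255 CPM depending on depth. Per length this is at most 0.909 FPKM for the longer Rmrp entry and 0.604 FPKM for Terc. These are limits on counted reads, and counting error alone sets them.

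The 3 RNAs with these few counts share a feature in the annotation, since each lies on the exons of another listed gene of its own strand. Rmrp is entered as an lncRNA (ENSMUSG00000115420, chr4:43492783-43493063, minus strand, 281 bases) and as a ribozyme (ENSMUSG00000088088, 271 bases), and the second entry lies wholly within the first. Capitals in the Rmrp sequence mark the 271 bases that belong to both entries, or 96.4% of the longer entry.
Rmrp: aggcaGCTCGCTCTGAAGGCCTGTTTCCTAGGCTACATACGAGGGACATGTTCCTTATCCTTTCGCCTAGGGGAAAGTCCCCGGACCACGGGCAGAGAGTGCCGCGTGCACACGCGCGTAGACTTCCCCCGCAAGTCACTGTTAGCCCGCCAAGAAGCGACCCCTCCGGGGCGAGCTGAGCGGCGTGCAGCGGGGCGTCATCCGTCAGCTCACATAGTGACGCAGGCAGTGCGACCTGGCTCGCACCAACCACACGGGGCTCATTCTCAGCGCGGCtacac
Terc (ENSMUSG00000064796, chr3:96414437-96414859, minus strand, 423 bases) shares 397 bases, 93.9% of its length, with the lncRNA AC121792.1, which also had 0 counts. Only the first 26 bases of Terc lie outside that gene. Its first 60 bases are shown, with capitals on bases 28 to 36, the longest stretch that fits the complement of the telomere repeat and so the template of telomerase.
Terc, first 60 bases: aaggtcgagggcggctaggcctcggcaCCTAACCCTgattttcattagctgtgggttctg
Rpph1 (ENSMUSG00000092837, chr14:50807449-50807767, minus strand, 319 bases) shares 233 bases, or 73.0%, with an exon of the protein-coding gene Ccnb1ip1, and 86 of its bases are its own. Ccnb1ip1, a gene needed for meiotic crossing over, had 401 counts in 7 libraries. Rn7sk, Rny1, Rny3 and Vaultrc5 share no exon base with another gene on either strand.

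The same relation was counted over all other genes of the annotation. Among short non-coding RNA genes (exons under 500 bases) with at least 80% of their exon sequence inside exons of a same-strand neighbour, 195 of 204 had no count in any library, which is 95.6% with a 95% Wilson interval of 91.8 to 97.7%. Among those that share bases on neither strand, 1280 of 3200 had no count, which is 40% (38.3 to 41.7%). Where the sharing was on the opposite strand only, 3 of 57 had no count, or 5.26% (1.81 to 14.4%). Partial sharing did not go with so high a share. Of short RNA genes with 1% to 80% of their bases shared on the same strand, the class of Rpph1, 14 of 49 had no count, or 28.6% (17.8 to 42.4%), and of such lncRNA genes 8 of 316, or 2.53%. The difference by strand was also present in longer genes, with 66 of 101 lncRNA genes (65.3%) and 45 of 67 protein-coding genes (67.2%) without a count under same-strand sharing of at least 80%, against 2 of 154 (1.30%) and 1 of 45 (2.22%) under sharing on the opposite strand. How reads on shared bases were counted is not given in the sources used here, and its part in the missing counts was not tested. No tissue comparison was made for Rmrp, Terc and Rpph1.

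**Figure D1:**
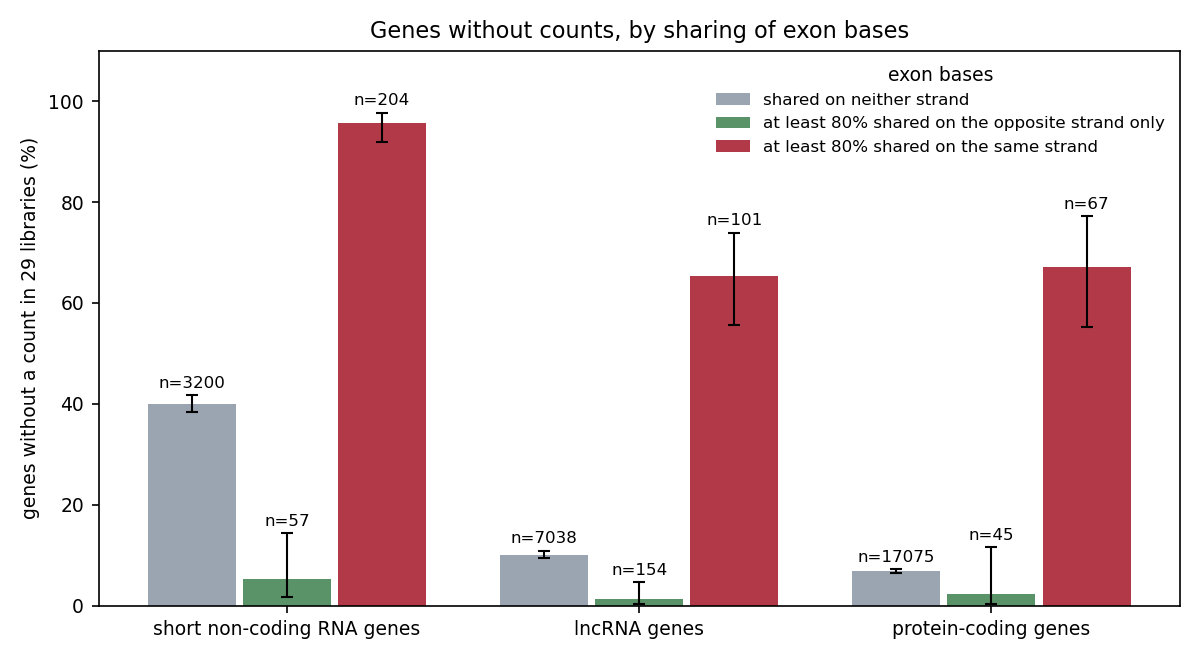
Share of genes with no count in any of the 29 libraries, in percent, by gene class and by how their exon bases are shared with other genes; bars are shares and lines are 95% Wilson intervals. Sharing of at least 80% on the same strand goes with the highest of the 3 plotted shares in each class, 95.6% for short non-coding RNA genes against 40% where no base is shared.

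Rn7sk was by far the most counted of these RNAs. It received 42807843 counts, 6.28% of all counts of the series, and was the gene with the most counts in 24 of the 29 libraries and second in the others. Its share of a library was between 3.50% and 11.6%. The highest shares were in ovary, with 6.90%, 10.5% and 11.6% in the 3 libraries. The lowest median was in testis, with 3.57%, 4.45% and 4.78%. In cerebellum the lowest, median and highest library were at 3.61%, 8.32% and 9.70%, and in brain at 4.68%, 5.76% and 7.51%. The 5 heart libraries were at 4.12%, 6.88%, 4.14%, 6.19% and 4.54%, and colon ran from 3.50% to 6.18% with a median of 5.33%. All ovary libraries were above all testis, heart and colon libraries, while the other tissues overlapped.

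Per length, the mean level of Rn7sk was 292245 FPKM in ovary and 128917 FPKM in testis. The other short RNA genes with the highest mean level of counted reads were the snRNA genes Gm22513 and Gm25939 and the snoRNA gene Gm22988. Their means over the libraries were 8952, 3818 and 894 FPKM. Reads that mapped to several places were dropped, so these levels do not rank the RNAs by their abundance. The highest tissue means of the other counted members were 694 FPKM for Vaultrc5 in colon, where single libraries reached 1041 FPKM, and 332 FPKM for Rny3 and 304 FPKM for Rny1 in cerebellum.

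Differences between tissues were tested as log2 differences after TMM scaling, with edgeR's quasi-likelihood test and Benjamini-Hochberg adjustment over all genes tested, and were called at an adjusted p under 0.05. Of the 4 RNAs tested, 3 differed among the 6 tissues, where 95.5% of all genes did so. Rn7sk was the RNA that missed the threshold (adjusted p = 0.0812 by edgeR's quasi-likelihood test). Against the mean of the other tissues, Rn7sk was called only in colon, at a log2 difference of -0.46 (SE 0.19, edgeR adjusted p = 0.0411), and this call held under 2 of the 8 other settings and without 15 of the 29 single libraries.

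What could be said of Rn7sk depended on the settings. With TMM kept, its differences among tissues passed without the filter on low counts (edgeR adjusted p = 0.0139), with limma and quality weights (limma adjusted p = 0.000314) and with the library code as a block (edgeR adjusted p = 0.0275). On the total count of each library, its differences among tissues passed the threshold (edgeR adjusted p = 0.000889), and ovary was higher than the other tissues by 0.80 (adjusted p = 0.00110) where the TMM value was 0.30. Cerebellum against heart was -0.03 with TMM and 0.56 with total counts (edgeR adjusted p = 0.0229). The change of scaling moved the median of all genes by 0.49 in ovary and by -0.48 in heart on the log2 scale. The tissue order of Rn7sk is thus uncertain. Ovary had the highest mean level in both scalings, and with TMM and edgeR on the filtered counts of all libraries it was resolved from no other tissue. Colon against ovary passed with no filter (-0.61, edgeR adjusted p = 0.0400), with limma (-0.73, limma adjusted p = 0.00615) and without the first ovary library (-0.87, edgeR adjusted p = 0.0214), the third female cerebellum library (0.0370) or the second (0.0492) or the third (0.0266) female heart library. Ovary against testis passed with no filter (0.76, edgeR adjusted p = 0.0202) and with limma (0.73, limma adjusted p = 0.00420). Without the third female heart library, the difference of Rn7sk among tissues passed with TMM too (edgeR adjusted p = 0.0120). It also passed without the third female cerebellum library (0.0181) and without the first ovary library (0.0383). Without the third female heart library, heart was higher than the other tissues by 0.44 (edgeR adjusted p = 0.0415) and than testis by 0.69 (0.0219), and lay 0.14 above ovary (0.748). With all libraries, heart against testis was at 0.55 (edgeR adjusted p = 0.112). It passed with no filter (0.70, edgeR adjusted p = 0.0186) and with limma (0.76, limma adjusted p = 0.000673).

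**Figure D2:**
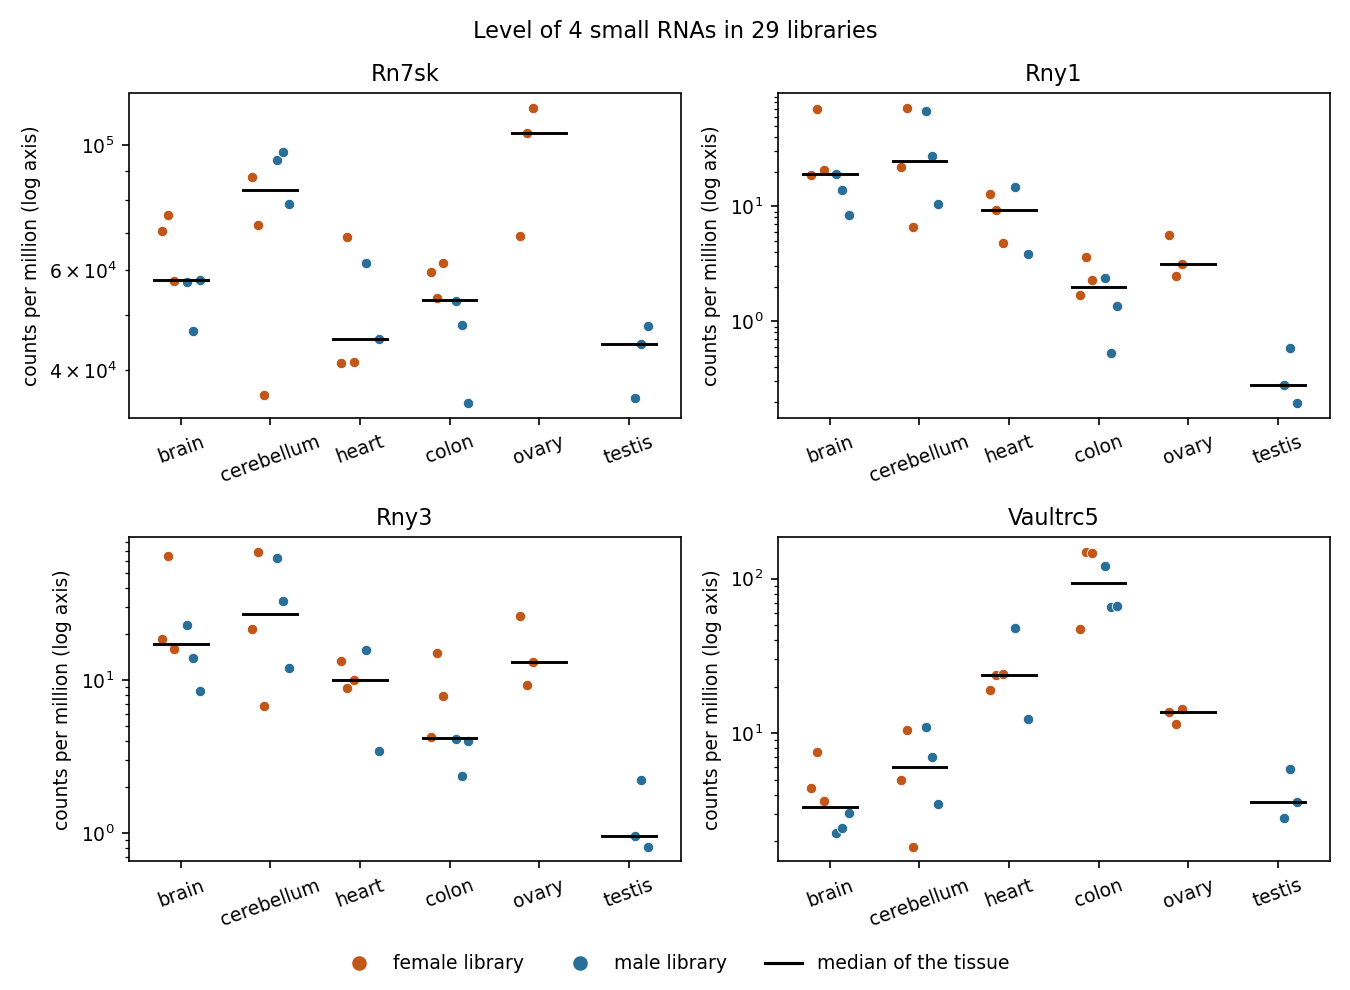
Level of the 4 counted RNAs in each library, in CPM on a log axis, by tissue, with a panel for each RNA; points are libraries, coloured by sex, and horizontal lines mark tissue medians. Rn7sk spans little more than 3-fold, whereas Rny1 is lowest in testis, Vaultrc5 is highest in colon, and single tissues spread widely for both Y RNAs.

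Rny1 was high in the nervous system and close to absent in testis. In cerebellum the lowest, median and highest libraries had 6.57, 24.6 and 71.2 CPM, and in brain 8.40, 18.9 and 70.4 CPM. The 5 heart libraries had 12.9, 9.30, 4.75, 14.8 and 3.83 CPM. All libraries of these 3 tissues except the heart libraries with 4.75 and 3.83 CPM were above every library of ovary, colon and testis. Ovary had 5.66, 2.49 and 3.13 CPM, and colon ran from 0.532 to 3.63 CPM with a median of 2.01. The 3 testis libraries had 0.281, 0.582 and 0.195 CPM, which are only 8, 18 and 6 counts. Per length, Rny1 reached a mean of 304 ± 252 FPKM over the 6 cerebellum libraries (SD) but only 3.15 ± 1.81 FPKM over the 3 testis libraries.

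Against the mean of the other tissues, Rny1 was higher in cerebellum by 3.13 (SE 0.39, edgeR adjusted p = 1.1e-07), in brain by 2.56 (SE 0.39, 2.74e-06) and in heart by 1.61 (SE 0.44, 0.00282), all as log2 differences. It was lower in testis, at -4.35 (SE 0.86, edgeR adjusted p = 7.00e-05), and in colon, at -1.86 (SE 0.53, 0.00356). Ovary was at -1.09 (SE 0.63, edgeR adjusted p = 0.186). Neighbours in the order of levels were often not resolved, with adjusted p of 0.577 for brain against cerebellum, 0.233 for brain against heart and 0.499 for colon against ovary by edgeR, although brain was called above heart with total counts (1.30, edgeR adjusted p = 0.0447). Heart was above ovary by 2.26 (edgeR adjusted p = 0.0138) and colon above testis by 2.08 (0.0437). The heart call was lost without the first male heart library (0.98, edgeR adjusted p = 0.162) and with total counts (1.00, 0.0537), and the colon call with limma (limma adjusted p = 0.123). Heart against ovary was lost at 1.29 (edgeR adjusted p = 0.113) with total counts, with limma (limma adjusted p = 0.0762), at 1.63 (edgeR adjusted p = 0.0995) without the first male heart library, and without the second ovary library (0.0612) or the third (0.0528). Colon against testis was lost with limma (limma adjusted p = 0.329) and without replicate 2 or 3 of female colon, 1 or 3 of male colon, or 1 or 3 of testis (edgeR adjusted p from 0.0517 to 0.136). Without the third female heart library, heart was at 1.83 (edgeR adjusted p = 0.00096) against the other tissues and at 2.47 (0.0057) against ovary.

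Rny3, like Rny1, was high in the nervous system and low in colon and testis. Cerebellum libraries had between 6.76 and 68.5 CPM with a median of 27.02, and brain libraries between 8.44 and 64.2 CPM with a median of 17.3. The 3 ovary libraries had 26.3, 9.24 and 13.1 CPM, within the range of brain. Heart had 13.4, 8.82, 9.95, 15.6 and 3.44 CPM. Colon ran from 2.34 to 14.9 CPM with a median of 4.17, and testis was again lowest with 0.949, 2.20 and 0.813 CPM, below every library of the other tissues.

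For Rny3 the log2 difference from the other tissues was 1.99 in cerebellum (SE 0.37, edgeR adjusted p = 4.92e-05), 1.42 in brain (SE 0.38, 0.00224), -1.12 in colon (SE 0.46, 0.0366) and -3.21 in testis (SE 0.72, 0.000321). Heart (0.61, SE 0.43, edgeR adjusted p = 0.267, and 0.74 with 0.191 without the third female library) and ovary (0.31, SE 0.52, 0.783) were not called. Brain against ovary (0.93, edgeR adjusted p = 0.226) and heart against ovary (0.26, 0.853) were not resolved, although the first was called with the library code block (1.09, 0.0484). Colon was above testis by 1.74 (edgeR adjusted p = 0.0365). The call in colon was lost with RLE (0.0687), total count (0.0666) and protein-coding scaling (0.0758) by edgeR, with limma (0.241), and without 8 of the 29 libraries, which were replicates 1 and 3 of female colon, 1, 2 and 3 of male colon, 1 of ovary, 2 of testis and 1 of male heart (edgeR adjusted p from 0.0531 to 0.105). Colon against testis was lost with limma (limma adjusted p = 0.175) and without 5 libraries, replicates 2 of female colon, 1 and 3 of male colon and 1 and 3 of testis (edgeR adjusted p from 0.0531 to 0.128).

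Because both Y RNAs come from the same locus and were counted in the same libraries, their ratio is free of differences in library scaling. Rny1 made up 50.7 ± 3.49% (SD, n = 6) of the counts of both Y RNAs in brain and 49.2 ± 2.51% (n = 6) in cerebellum. In ovary its share was 19.4 ± 1.76% (n = 3), in testis 21.05 ± 1.75% (n = 3) and in colon 25.3 ± 6.79% (n = 6). Heart was at 46.8 ± 8.27% (n = 5). Of the heart libraries, 4 lay between 48.6 and 52.7%, and the third female library, the one with high adipose markers, was at 32.3% (114 counts of Rny1 and 239 of Rny3, exact Clopper-Pearson 95% interval 27.4 to 37.4%). Blood markers (Hbb-bs, Hba-a1 and Alas2) and adipose markers both split the tissues in the same way as the share. Blood markers summed to 309.9 to 22145 FPKM in every library of brain, cerebellum and heart and to 24.0 to 288 FPKM in every library of ovary, colon and testis. The third female heart library had the lowest blood sum of the heart libraries, 6291 FPKM, but brain and cerebellum reached at most 3225 FPKM. Adipose markers summed to 0.0167 to 6.67 FPKM in brain, cerebellum and the other 4 heart libraries. They summed to 22.1 to 391 FPKM in ovary, colon and testis and to 3100 FPKM in the third female heart library. The part of adipose and blood markers in the Y RNA levels and shares was not tested. Without the third female heart library the heart share was 50.4 ± 1.93% (n = 4), and the lowest library of brain, cerebellum and heart was then above the highest library of colon, ovary and testis, which was at 36.9%.

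The log2 ratio of Rny1 to Rny3 differed among the 6 tissues in a permutation test of the variation between tissues, with p = 1e-05, the smallest that 100000 resamples can give. Tissues accounted for 89.1% of the variation of the log2 ratio among the 29 libraries, and for 92.9% without the third female heart library. Within females alone the share was 91.6% (permutation p = 0.0002), and within males alone 89.3% (permutation p = 0.0029). The test was added after the levels had been seen. Within groups the ratio varied far less than its parts, with an SD of 0.35 for the log2 ratio against 1.04 for Rny1 and 1.00 for Rny3.

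**Figure D3:**
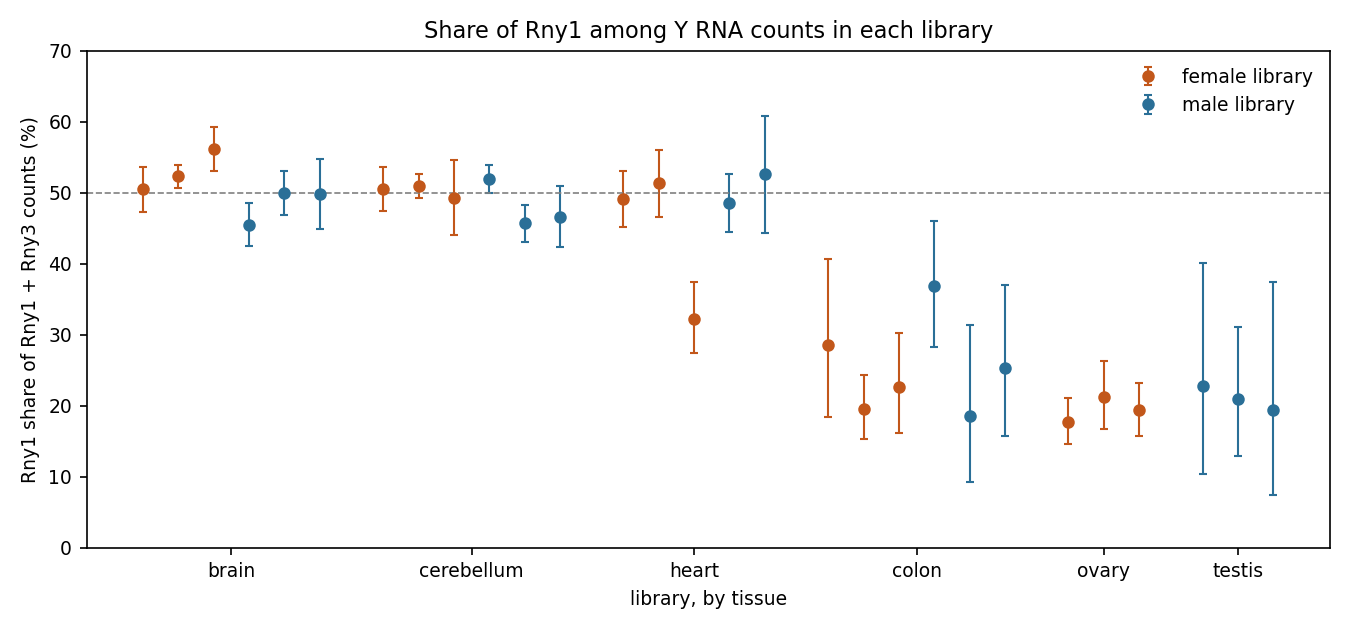
Rny1 as a percentage of the counts of Rny1 and Rny3 together in each of the 29 libraries, by tissue; points are libraries and vertical lines are exact 95% intervals for counting error. Brain, cerebellum and 4 heart libraries lie near 50%, the third female heart library is at 32.3%, and colon, ovary and testis run from 17.7 to 36.9%.

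Vaultrc5 (ENSMUSG00000065145), a gene of 143 bases on the plus strand at chr18:36801866-36802008 that ends in 4 T like the Y RNA genes, was highest in colon and lowest in brain. Colon libraries had between 47.3 and 149 CPM with a median of 93.8. The 5 heart libraries had 19.1, 23.9, 24.0, 47.9 and 12.4 CPM. Colon and heart overlapped in a single heart library, and all other tissues were below colon. Ovary had 13.6, 11.4 and 14.4 CPM, and testis had 2.85, 5.85 and 3.61 CPM. Cerebellum ran from 1.85 to 11.0 CPM with a median of 6.04, and brain from 2.26 to 7.61 CPM with a median of 3.35.

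The log2 difference of Vaultrc5 from the other tissues was 3.46 in colon (SE 0.26, edgeR adjusted p = 1.03e-11) and 1.85 in heart (SE 0.28, 3.93e-06). It was -2.06 in brain (SE 0.34, edgeR adjusted p = 9.94e-06), -1.62 in testis (SE 0.45, 0.00245) and -1.25 in cerebellum (SE 0.32, 0.00176). Ovary was at -0.38 (SE 0.40, edgeR adjusted p = 0.541). These 5 calls held under every other setting and without any single library, with heart at 1.94 (4.14e-06) without the third female library. Heart was below colon at -1.35 (edgeR adjusted p = 0.00494, but -1.01 and 0.0575 without the second male heart library, and -1.26 and 0.0103 without the third female one), while ovary, cerebellum, testis and brain, in this order of mean level, were not resolved from their neighbours (0.178, 0.569 and 0.502). Cerebellum and ovary libraries did not overlap in CPM, and cerebellum was called below ovary with total counts (-1.03, edgeR adjusted p = 0.0488) and without the second female cerebellum library (-1.10, 0.0365). Colon also had the highest summed level of 3 smooth muscle markers (Myh11, Acta2 and Cnn1), 2550 to 6100 FPKM against at most 2038 FPKM in any other tissue, and its immune markers (Ptprc, Cd74 and Lyz2) summed to 266 to 895 FPKM. The part of these cell types in the Vaultrc5 level was not tested.

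Over the tissues, members called higher than the other tissues were 2 of 4 in brain, where 33% of all genes were called higher, 2 in cerebellum (30.8% of all genes), 2 in heart (22.1%) and 1 in colon (28.2%). None was called higher in ovary (22.4% of all genes) or testis (40.4%). Members called lower were 1 in brain (23.1% of all genes), 1 in cerebellum (22%), 3 in colon (31.1%) and 3 in testis (26.7%), with none in heart (29.6%) or ovary (19.8%). With 4 RNAs, nothing particular to them is read from these counts. In ovary, 0 of 4 were called by edgeR, DESeq2 or limma and 0 had an unadjusted p under 0.05. Over the 15 pairs of tissues, 31 of 60 member comparisons were called, against 58.6% over all genes.

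Male and female libraries were compared over brain, cerebellum, heart and colon. The log2 difference of males minus females was -0.03 for Rn7sk (SE 0.17), -0.57 for Rny1 (SE 0.39), -0.65 for Rny3 (SE 0.37) and -0.17 for Vaultrc5 (SE 0.27). By edgeR's quasi-likelihood test 0 of 4 were called, the smallest adjusted p being 0.617, and 0.104% of all genes were called. For a difference of the sex effect between tissues 0 of 4 were called as well, against 0.0167% of all genes. No member had an unadjusted p under 0.05 in either test, and DESeq2 and limma called 0 of 4 in both. With standard errors near 0.4 for the Y RNAs, differences of the size seen here were not detectable at this spread.

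The proteins that work with these RNAs were followed through their mRNAs in the same fit. For the vault, Parp4, the vault poly(ADP-ribose) polymerase, and Tep1, a vault and telomerase protein, were both highest in colon, by 2.18 (SE 0.08, edgeR adjusted p = 4.05e-18) and 2.69 (SE 0.12, 1.15e-16) on the log2 scale against the other tissues. Both were lower in brain, at -1.44 and -2.18, and in cerebellum, at -0.74 and -1.49, and Parp4 was higher in heart, at 0.99 (1.04 without the third female heart library). Tep1 in heart was at 0.40 (edgeR adjusted p = 0.0185), but at -0.059 with total counts, at 0.21 with limma (limma adjusted p = 0.176), at 0.22 (0.178) without the third female heart library and at 0.28 (0.209) without the first male one. Testis parted them, with Parp4 lower at -1.18 (edgeR adjusted p = 9.64e-09) and Tep1 at 0.32 (0.0962). The median level of Parp4 was 29.2 FPKM in colon and 3.33 FPKM in brain. In brain, cerebellum and colon, Vaultrc5 and both mRNAs were thus called in the same direction. Mvp, the major vault protein, was not matched by name and is not analysed here.

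For the Y RNAs, Trove2, the gene of the Ro60 protein, was higher in brain by 0.95 (SE 0.09, edgeR adjusted p = 3.42e-10) and in cerebellum by 1.19 (4.07e-12). It was lower in testis at -1.67 (SE 0.14, edgeR adjusted p = 5.96e-11) and in colon at -0.42 (0.000413, but -0.27 and 0.0845 with total counts). Heart differed from this likeness, with Trove2 at -0.26 (edgeR adjusted p = 0.0351, -0.29 without the third female library) where Rny1 was higher. This call of Trove2 was lost with protein-coding scaling (-0.15, edgeR adjusted p = 0.247), no filter (0.111), the replicate block (0.0605) and the library code block (0.0565), and without replicate 1 or 2 of female heart, 1 or 2 of male heart, 2 or 3 of testis or 3 of ovary (0.0535 to 0.175). Ssb, the La protein, was higher in brain (0.67, edgeR adjusted p = 0.00203, but 0.41 and 0.0586 with protein-coding scaling) and at -0.58 in testis (0.0490). The testis call was lost with RLE (edgeR adjusted p = 0.139), protein-coding scaling (0.0880), DESeq2 (DESeq2 adjusted p = 0.113) and the replicate block (0.0537), and without any of 17 single libraries (0.0520 to 0.229, the highest without the third testis library). Puf60, another Y RNA binding protein, was higher in brain (0.34), cerebellum (0.57) and testis (0.37, edgeR adjusted p = 0.00820) and lower in colon (-0.88) and heart (-0.30, 0.0184). Of these calls, brain was lost with protein-coding scaling (0.391) and without the second testis library (0.102), testis with total counts (0.11, edgeR adjusted p = 0.339) and no filter (0.20, 0.197), and heart with protein-coding scaling (0.0971) and without the third female heart library (0.0647), the second testis library (0.126) or either male heart library (0.0519 and 0.0912). Median levels of Trove2 were 13.5 FPKM in brain, 16.6 in cerebellum and 2.62 in testis.

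**Figure D4:**
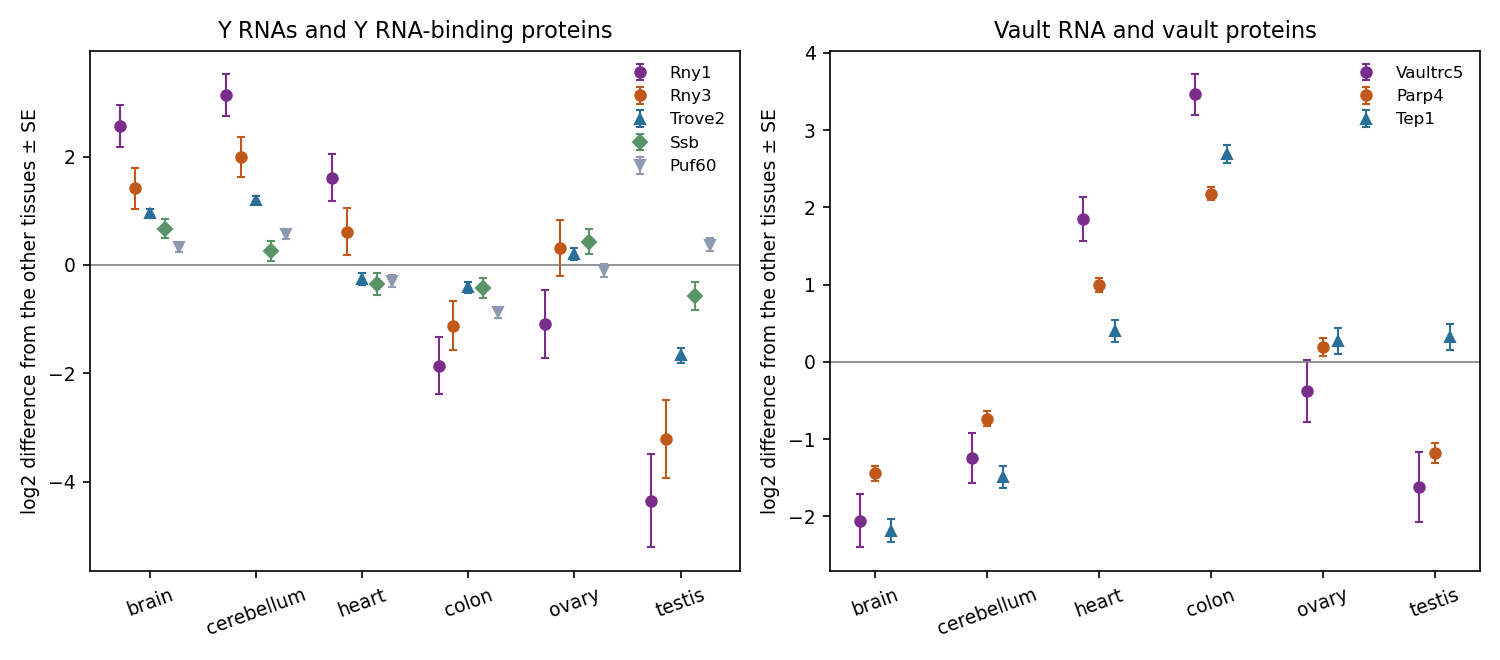
Log2 difference of each tissue from the mean of the other tissues, with standard error, for Rny1, Rny3, Trove2, Ssb and Puf60 and for Vaultrc5, Parp4 and Tep1. The vault genes are highest in colon together (3.46, 2.18 and 2.69), and the Y RNAs and Trove2 are lowest in testis together (-4.35, -3.21 and -1.67).

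Counts over the lists are read against the shares of all genes, 28.2% called higher and 31.1% called lower in colon and 40.4% and 26.7% in testis. The list of 7 proteins of the 7SK complex had 4 members higher and 3 lower in testis, with a median log2 difference of 0.24 against 0.10 for all genes. Larp7, which protects the 3′ end of 7SK, was higher by 3.81 (edgeR adjusted p = 3.42e-21) and Hexim2 by 2.55, while Ccnt2 (-0.83) and Hexim1 (-0.54) were lower. In colon 2 were higher (Ccnt2 at 0.65 and Hexim1 at 0.25) and 3 lower, among them Larp7 at -1.33 and Mepce, the capping enzyme of 7SK, at -0.89. The call of Hexim1 in colon was lost without the third female colon library (0.18, edgeR adjusted p = 0.0894) or the second male one (0.20, 0.0691). Rn7sk in testis was at -0.37 (SE 0.25, edgeR adjusted p = 0.213), but was called lower with total counts (-0.62, edgeR adjusted p = 0.0150), no filter (-0.54, 0.0301) and limma (-0.48, limma adjusted p = 0.00453).

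Of 11 protein genes listed for RNase P and MRP, 10 were matched by name and tested (not Pop7). In colon 0 were higher (28.2% of all genes) and 9 lower (31.1% of all genes), with a median of -1.03 against -0.38 for all genes, led by Rpp25 at -3.00 and Rpp38 at -1.61. In testis 5 were higher and 3 lower, with Rpp38 at 1.63, Pop4 at 0.96, Rpp14 at -1.01 and Rpp25 at -2.05. Of 8 telomerase genes 0 were higher and 6 lower in colon, against 28.2% and 31.1% of all genes, with a median of -0.90 against -0.38. The lower genes included the assembly factor Naf1 at -1.61 and Nop10 at -1.63. In testis 4 were higher, among them Naf1 at 1.26 and Nop10 at 1.08, and Dkc1, the dyskerin gene, was lower at -1.49.

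RNA polymerase III and its factors, which make all counted members, were lower in colon for 19 and higher for 2 of the 24 genes matched of 27 listed (not Gtf3c2, Gtf3c6 and Snapc1), against 31.1% and 28.2% of all genes. The median was -0.49 against -0.38 for all genes. Polr3d (-1.76) and Brf1 (-1.03) fell, and Polr3c (0.53) and Bdp1 (0.48) rose. Testis had 9 higher and 8 lower, with Crcp at 2.20, Brf2 at 1.57 and Polr3k at -0.54. No match between these lists and the levels of the RNAs was tested.

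Within groups, the Y RNAs varied more between libraries than nearly any gene. The pooled SD of log2 CPM between libraries of the same tissue and sex was 1.05 for Rny1, 1.01 for Rny3 and 0.74 for Vaultrc5, and 0.40 for Rn7sk. The first value corresponds to a 2.07-fold step. The median was 0.42 over all genes tested, 0.71 over 445 other short non-coding RNA genes and 0.32 over 16965 protein-coding genes longer than 1000 bases. Genes were ordered by mean level and split into sets of equal size, and each RNA was placed among the 2991 genes of its set. Rny1 was above 99.4% of genes, Rny3 above 99.3%, Vaultrc5 above 99.1% and Rn7sk above 94.7%. Rn7sk had the most or second most counts in every library, so its set lies below it and its place is not matched for level.

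The counts themselves show this. In the 3 female brain libraries Rny1 had 486, 2008 and 559 counts, and Rny3 had 477, 1830 and 436. In the 3 female cerebellum libraries Rny1 had 526, 1828 and 178 counts, Rny3 had 515, 1758 and 183, and Vaultrc5 had 121, 270 and 50. Every one of these is highest in the second library of its group, although total counts of the female cerebellum libraries differed little. In the third female cerebellum library Rn7sk was also low, at 3.61% of counts against 8.78% and 7.21%. That library had 5.17% of its counts on mitochondrial genes, where the other cerebellum libraries had 2.46 to 3.25%, and the part of RNA quality or library making in this was not tested.

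The deviations of each library from its group mean went together. Over 29 libraries Rny1 and Rny3 had a Pearson r of 0.95 and a Spearman rho of 0.94, with adjusted p = 7.2e-05 for both in a permutation of libraries within groups, adjusted over 36 p-values. Rny1 and Vaultrc5 had r = 0.83 and rho = 0.78 (permutation, adjusted p = 0.00028 and 0.00103), and Rny3 and Vaultrc5 had r = 0.85 and rho = 0.78 (0.00102 and 0.00196). Without the 2 libraries farthest from the median these r values were 0.93, 0.75 and 0.79. Rn7sk went with Vaultrc5 (r = 0.57, rho = 0.62, permutation adjusted p = 0.00481 and 0.00284) but its relation to Rny1 (r = 0.45, rho = 0.36, 0.157 and 0.164) and Rny3 (r = 0.35, rho = 0.29, 0.221 and 0.224) did not pass. Without the 2 farthest libraries its r with Vaultrc5 was 0.45.

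Other short RNAs moved with them, in a comparison added after these values were seen. With the summed level of 308 other short non-coding RNA genes under 150 bases, which took 0.0224 to 0.169% of counts, deviations of Rny1 had r = 0.92 and rho = 0.89, Rny3 r = 0.90 and rho = 0.88, and Vaultrc5 r = 0.86 and rho = 0.83. The permutation adjusted p of r was 7.2e-05, 7.2e-05 and 0.000206. Rn7sk, which is longer, had r = 0.64 with that sum and r = 0.84 with the sum of 137 such genes of 150 bases or more (permutation adjusted p = 0.0227 and 0.00036). With the longer genes Rny1 had r = 0.76, Rny3 0.72 and Vaultrc5 0.79, and the difference between the sums was not tested. Partner mRNAs did not pass, with r = -0.43 for Rny1 and Trove2 (permutation adjusted p = 0.137), -0.45 for Rny3 and Trove2 (0.126), 0.34 for Vaultrc5 and Parp4 (0.197) and -0.01 for Vaultrc5 and Tep1 (0.970). All of these share libraries, depth and library making, whose separate parts were not tested.

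**Figure D5:**
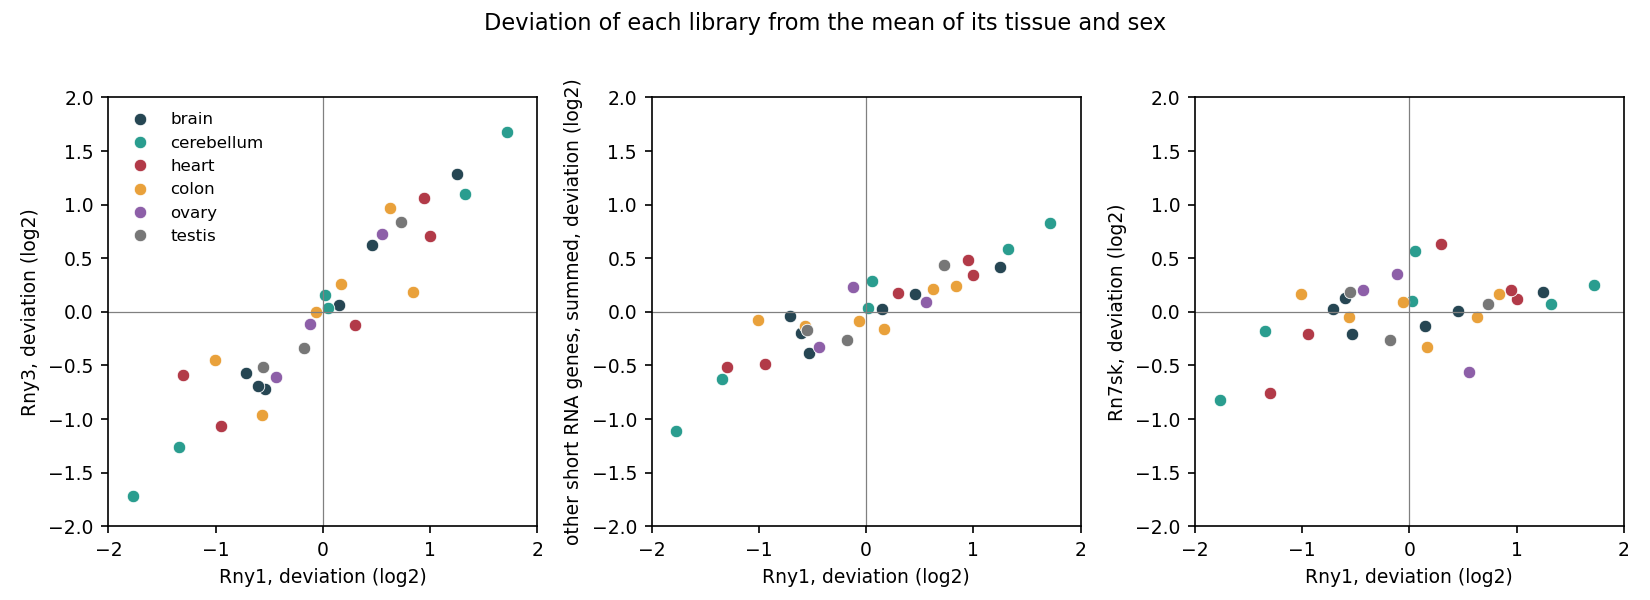
Deviation of each library from the mean of its tissue and sex, in log2 CPM, for Rny3, for the summed other short RNA genes under 150 bases and for Rn7sk, each against Rny1; points are the 29 libraries, coloured by tissue. Rny3 follows Rny1 closely (r = 0.95), the sum follows with smaller deviations (r = 0.92), and Rn7sk follows least (r = 0.45).

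The genes most like each RNA differed by whether tissues or libraries were followed. By level over 29 libraries, Vaultrc5 was most like Tmem140 (Pearson r = 0.944), Tinagl1 (0.943) and Parp4 (0.940). Rny1 was most like Anp32e (0.92), Pitpnb (0.91) and Arhgap26 (0.90), and Rny3 most like the snoRNA gene Gm25107 (0.84), Anp32a (0.84) and Anp32e (0.83). Rn7sk was most like the snRNA genes Gm22513 (0.85), Gm25679 (0.82) and Gm22068 (0.80). By deviation from group means, Rny1 and Rny3 were both most like Rnu12, the U12 RNA of the minor spliceosome (0.95 for each), followed by Gm25099 and Gm25776 for Rny1 and by Gm25776 and Gm22009 for Rny3. Vaultrc5 was most like Snord15a (0.89), Gm25492 and Snord15b. Of the 20 genes nearest by deviation, 19 were short non-coding RNA genes for Rny1, 19 for Rny3 and 17 for Vaultrc5, a class that makes up 1.49% of the genes tested. For Rn7sk it was 0 of 20, led by the protein-coding genes Mybbp1a (0.90), Map2k5 (0.87) and Eps15l1 (0.86). These likenesses are descriptions over libraries that share tissue, depth and preparation.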

How the data were processed

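The 29 RNA-seq libraries were grouped by the tissue, sex and replicate number of their labels, and the 6 Iso-seq cells, which have no counts, were not compared. The authors deposited a table of raw counts per gene, in whole numbers and without normalization. Their processing notes name FastQC 0.11.8, MultiQC 0.9, HISAT2 2.0.5, featureCounts 1.6.3 and mm10, and in the study's methods, reads that mapped to several places were dropped. The strand and overlap settings of the counting are not given in the sources used here. In its default setting featureCounts leaves a read on exons of more than 1 gene unassigned, and unique mapping leaves out reads shared with an identical copy, so both could lower the counts of overlapping or copied RNAs. The deposited annotation on GRCm38.p6 gave names, biotypes and exons, and sequences came from the transcripts of GENCODE release M21 on that build.

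The 7 RNAs and the lists of partner genes were chosen with earlier results of these data known. CPM and FPKM were computed here from total counts and the union of exons. Counts were fitted with edgeR 4.0.16 (R 4.3.3) by glmQLFit in a single model with 10 group means over 29 libraries, with TMM, filterByExpr by group (29911 genes kept) and Benjamini-Hochberg adjustment. The test was also run on simulated counts with a common spread for all genes and no effect of the library. The Y RNAs spread more than nearly any gene, so this run does not check the calls on them. Log2 CPM used a prior count of 2, and a count of 0 was read as allowing 3. Binomial intervals cover counting error only. The closing section gives the alternatives: RLE and total count scaling, scaling on protein-coding genes over 1000 bases, no filter, DESeq2 1.42.0, limma 3.58.1 with quality weights, blocks for replicate number or for the library code without its last digit, and leaving out each library.

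Genes named are the 7 RNAs, up to 2 partner genes per list and direction with the smallest adjusted p in testis and in colon (the tissue with most member calls), the 3 genes most like each RNA by level and by deviation, the 3 other short RNA genes with the highest mean FPKM, and genes that share exon bases with a member. A gene that this rule names is not reported here. Tep1, Parp4 and Trove2 were followed in every tissue. Correlations used within-group permutation (100000 resamples, scipy 1.17.1). Counts of all 28 replicate pairs differed by more than counting noise (chi-square from 10.1 to 286 for each degree of freedom), which shows that no pair holds the same counts but not that libraries come from separate animals. Replicate numbers did not pair libraries across groups. All 29 count columns were used, and columns beyond these numbered 0.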

Additional observations from a re-analysis of the deposited data

Results flagged for a closer look

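In brain, the second female library stood apart for both Y RNAs. It had 70.4 CPM of Rny1, where the other 5 brain libraries had 8.40 to 20.5 CPM, and 64.2 CPM of Rny3, where the others had 8.44 to 22.7 CPM. Its Vaultrc5 level of 7.61 CPM was also the highest of the brain libraries, and its share of Rn7sk, 7.51%, was the highest too.

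In heart, the Rny1 share of Y RNA counts was 32.3% in the third female library and 48.6 to 52.7% in the other 4. This library also held the high adipose markers, with Adipoq at 695 FPKM and Cfd at 2313 FPKM, and an immune marker sum of 684 FPKM against 217 to 302 FPKM in the other heart libraries. Their part in the share was not tested. Of 20 sets of 5 or 6 libraries examined, 3 had a library apart. The cutoff is made to flag about 1 in 20 independent sets of normally distributed values. The second female brain library was apart for both Y RNAs, so the sets are not independent and this rate cannot be applied to them.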

How the results depend on the processing

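Of the 15 calls of a tissue against the other tissues, 11 held under every alternative, 5 of 5 for Vaultrc5, 3 of 5 for Rny1, 3 of 4 for Rny3 and 0 of 1 for Rn7sk, and 22 of 31 calls between pairs of tissues held. The number of RNAs called in colon was 4 and became 2 with RLE, total count, protein-coding scaling and limma, and 2 to 4 when single libraries were left out. In heart it was 2 and became 1 with total count, 3 with limma (Rn7sk, 0.43, limma adjusted p = 0.00846), and 1 to 3 without single libraries (1 without the first male heart library). In cerebellum it was 3 and became 4 with total count (Rn7sk, 0.40, edgeR adjusted p = 0.0308). In testis it was 3 and became 4 with total count, no filter and limma (Rn7sk). In ovary it was 0 and became 1 with total count (Rn7sk) and 1 with the library code block (Rny1, -1.25, edgeR adjusted p = 0.0470). Partner genes called in ovary went from 21 to 44 with total count. Differences that were called before or after a change of sign turned with total count: Rn7sk in cerebellum against heart (0.56), Tep1 in heart (-0.059) and Puf60 in ovary (0.40). Differences called under neither setting changed sign with other alternatives too. With TMM-scaled library sizes the mean level was 215797 FPKM for Rn7sk in heart, 149511 for Rn7sk in testis and 68.4 for Vaultrc5 in ovary. The mean r of the 6 pairs of RNAs was 0.667 and ran from 0.544 (without the third female cerebellum library) to 0.719 (without the first ovary library). Over all genes, DESeq2 called 310 for sex and 240 for the interaction and limma 168 for the interaction, against 31 and 5 by edgeR, and limma called 19407 in ovary against 12617. The cause of these changes was not tested.

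Libraries with the same replicate number did not deviate together (mean r -0.00491 over 126 pairs of libraries of different groups, range -0.259 to 0.155), and 6 of 29 libraries were closest to their own number, so replicate numbers do not pair libraries. For libraries that share the library code without its last digit, the mean r was 0.0204 over 53 pairs (range -0.0990 to 0.223). It was -0.00319 over 325 pairs that do not. What the code stands for is not given, so pairing of tissues within animals remains unknown. With the replicate block, 46 of 88 member values were called, as without it, and 4 changed side. The edgeR adjusted p with the block was 0.0509 for Rn7sk in colon against the other tissues, 0.0615 for Rn7sk in heart against colon, 0.0172 for Rny1 and 0.0496 for Rny3 in cerebellum against heart.

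Depth limits the Y RNAs in testis and colon, where counts per library fell to 6, and the uncounted RNAs, whose limits concern counted reads only.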
